A study of Mus musculus with 6 samples.

Results

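The VEGF and angiopoietin genes described here are 10 genes of the growth factor systems that direct blood and lymph vessels. They are the VEGF family ligands Vegfa, Vegfb, Vegfc, Vegfd and Pgf, the receptor gene Flt1, the neuropilin co-receptors Nrp1 and Nrp2, the TIE2 ligand Angpt1 and the angiopoietin-like gene Angptl4. They were chosen by symbol from a table of 19877 genes, and all 10 were present. The levels come from mouse cells labelled ADSCs, usually read as adipose-derived stem cells, of genotype WT. The first group carried a Scrambled hairpin and the second a hairpin against Ifit1 (IFIT1 knockdown in the labels), with 3 libraries each, and 1 library of each group in each of 3 batches. Ifit1 encodes an interferon-induced protein that binds foreign RNA ends. The sources used here do not give the strain, the animals, their age, the time after knockdown, the vector or whether libraries came from separate cultures. P-values therefore describe the scatter among these libraries, some or all of which may be technical.

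VEGF family ligands are secreted dimers that act on tyrosine kinase receptors. VEGF-A binds FLT1 and KDR, VEGF-B and PlGF bind FLT1, and VEGF-C and VEGF-D bind FLT4, the main receptor of lymphatic endothelium. Neuropilins bind VEGFs and class 3 semaphorins. Angiopoietin-1 activates the endothelial receptor TIE2 (gene Tek), whereas ANGPTL4 shares the angiopoietin fold but acts chiefly as an inhibitor of lipoprotein lipase. Stromal cells of fat are known to secrete VEGF-A and other vessel-directed factors, and this secretion is much studied in cell therapy of ischaemic tissue.

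The bases just before the start sites of 3 ligand genes are shown because these ligands moved differently below: Vegfa and Vegfb fell, and Vegfc did not pass the test. The sequences are RefSeq's (GRCm38.p6), 250 bases each, ending 1 base before the start, written 5′ to 3′ on the gene's strand. They lie at chr17:46032378-46032627 (minus strand) for Vegfa, chr19:6987652-6987901 (minus strand) for Vegfb and chr8:54077282-54077531 (plus strand) for Vegfc. Capitals mark GC boxes, the letters GGGCGG on either strand, a known binding sequence of SP1.
Vegfa: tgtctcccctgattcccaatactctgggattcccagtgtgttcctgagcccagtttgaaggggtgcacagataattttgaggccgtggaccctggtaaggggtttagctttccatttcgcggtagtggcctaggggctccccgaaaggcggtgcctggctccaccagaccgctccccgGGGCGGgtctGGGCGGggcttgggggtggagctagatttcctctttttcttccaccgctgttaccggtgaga
Vegfb: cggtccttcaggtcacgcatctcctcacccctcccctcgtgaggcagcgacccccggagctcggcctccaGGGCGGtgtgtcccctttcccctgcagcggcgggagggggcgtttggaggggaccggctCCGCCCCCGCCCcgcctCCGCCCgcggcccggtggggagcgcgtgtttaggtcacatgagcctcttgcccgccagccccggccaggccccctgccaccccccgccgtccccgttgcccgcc
Vegfc: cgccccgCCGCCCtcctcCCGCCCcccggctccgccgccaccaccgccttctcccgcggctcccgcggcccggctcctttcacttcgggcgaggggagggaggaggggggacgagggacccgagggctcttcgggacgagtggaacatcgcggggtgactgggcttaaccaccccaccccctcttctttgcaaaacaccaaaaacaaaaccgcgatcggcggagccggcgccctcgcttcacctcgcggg

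The Vegfa window held 2 GC boxes, 72 and 62 bases before the start, counted from the first base of each match. The Vegfb window held 4, at 180, 121, 115 and 104 bases, and the Vegfc window 2, at 243 and 232 bases. Promoters of 8 of the 10 genes were matched by symbol, with 10 start sites in all, and 8 of these 10 starts had a GC box, against 32.7% of the 32851 promoters in the table. Of the 10 windows, 9 were also richer in G and C than the median of 52.4% over all promoters. The core of the hypoxia response element, ACGTG on either strand, stood in 16.6% of all promoters. Among the 10 starts it stood only before the second annotated start of Vegfa, which lies inside the gene, 211 bases upstream of that start. No match says only that these letters are not in the window. The Vegfd window differed in base composition, with 42.4% G and C, where the Vegfa window had 59.2% and the Vegfb window 76.4%. It had no GC box. The letters TATAAA stood 73 bases before the Vegfd start and 31 bases before the Flt1 start, and in 12.4% of all promoters.

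Levels are in FPKM, fragments scaled by gene length and by library depth, so comparisons between genes rest on the gene lengths used. The steps of the values gave 32.2 to 40.6 M fragments per library. Ifit1, the knocked-down gene, was lower in every knockdown library (1.48 to 1.76 FPKM) than in any scrambled library (3.75 to 4.97 FPKM). Genes with at least 1 FPKM in at least 3 of the 6 libraries were tested with limma on log2(FPKM + 0.5), and a gene was called at a Benjamini-Hochberg adjusted p under 0.05 over all 10311 tested genes. An error is the SD over 3 libraries for a level and the standard error for a log2 fold change (knockdown minus scrambled), which understates changes of low genes. Calls were frequent: 51.0% of tested genes were called, 19.8% higher and 31.1% lower in knockdown. This split of 2046 higher and 3209 lower genes became 1540 and 4035 after rescaling to TPM, 3001 and 2293 after median centring and 2486 and 2256 after quantile normalization. It was 2301 and 2494 with the trend in level and length removed. Across bulk libraries, fewer cells of a type and less RNA per cell cannot be told apart.

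Of the 10 genes, 7 were abundant enough to test, 2 were called lower (Vegfa and Vegfb), 2 were called higher (Nrp2 and Angptl4), and Vegfc, Vegfd and Nrp1 did not pass. Flt1, Pgf and Angpt1 lay below the filter. This share of called genes, 4 of 7, is near the 51.0% of all tested genes, and the median log2 fold change of the 7 was −0.02, beside −0.05 over all tested genes. The members ranged over about 2 orders of magnitude in level, from Vegfa and Vegfb through Nrp1, Nrp2, Angptl4, Vegfd and Vegfc to Flt1, Pgf and Angpt1. Neighbours in this order had separate ranges in both groups, except that Angptl4 and Vegfd, and Flt1 and Pgf, overlapped in scrambled libraries. Between Vegfa and Vegfb the order in FPKM itself differed by group.

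**Figure D1:**
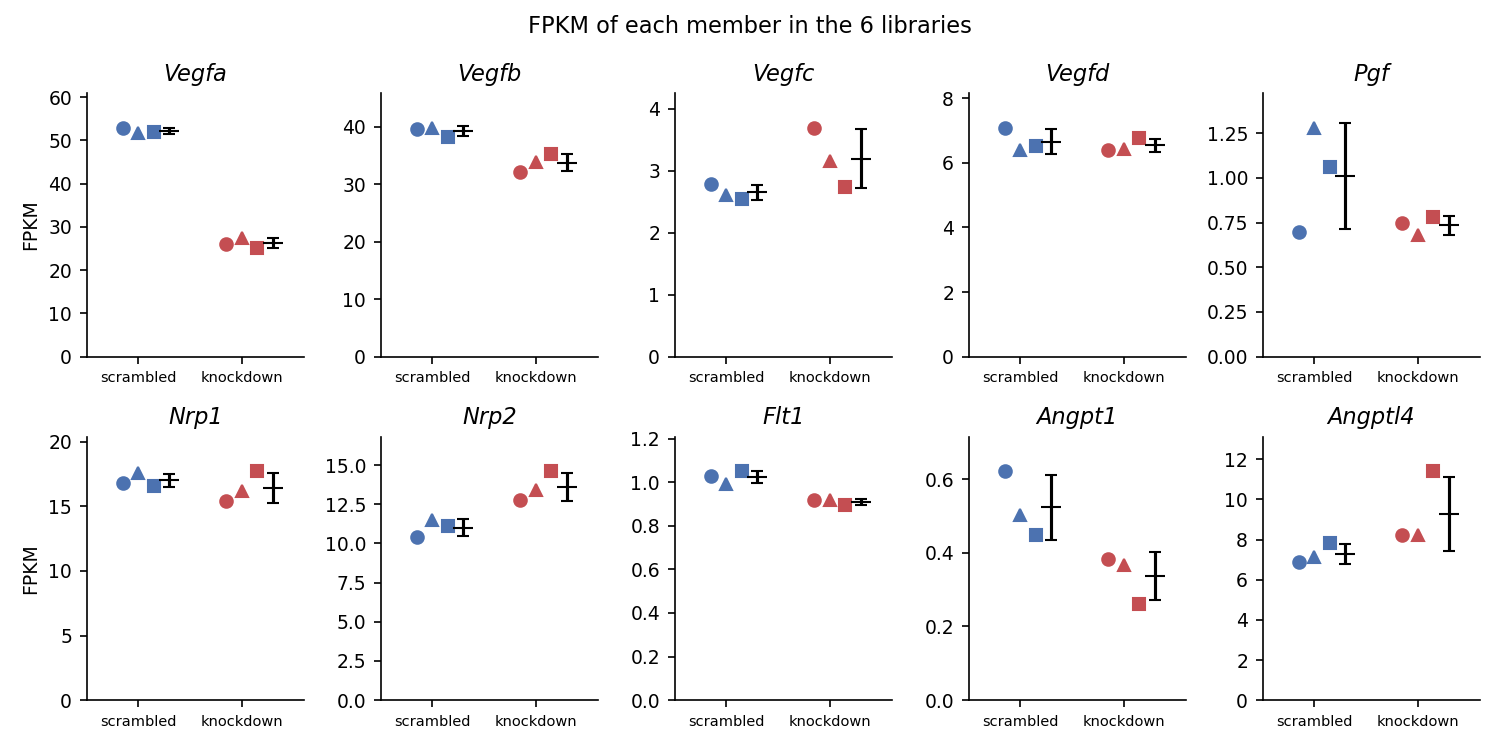
FPKM of the 10 genes (y axes from 0, scales differ) in scrambled (blue) and knockdown (red) libraries, with circles, triangles and squares for batches 1, 2 and 3 and black bars for the mean and SD (n = 3). Vegfa sits between 51.7 and 52.9 FPKM in scrambled and between 25.2 and 27.4 FPKM in knockdown libraries.

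Vegfa, the main angiogenic ligand of the family, was the member that changed by far the most. It lies on chromosome 17, positions 46016993 to 46032369 of GRCm38 (minus strand, Entrez 22339), with 8 exon blocks and 13 annotated transcripts in GENCODE M21. The gene-level values do not tell its splice forms apart. Vegfa stood at 52.9, 51.7 and 52.0 FPKM in scrambled libraries 1, 2 and 3 and at 26.1, 27.4 and 25.2 FPKM in knockdown libraries 1, 2 and 3. The groups were far apart and each was tight, with 8074 to 9031 fragments behind a scrambled value and 3715 to 4264 behind a knockdown value. The mean fell by 49.8%, from 52.2 ± 0.604 to 26.2 ± 1.10 FPKM (SD, n = 3 each). On the log2 scale this was a limma difference of −0.98 ± 0.04 (95% interval −1.06 to −0.90, adjusted p = 7.51e-06). Its unadjusted p of 1.1e-09 was the smallest of the 10311 tested genes in this fit. In size the change was less extreme, since 120 tested genes (1.16%), Vegfa included, had a log2 fold change at least as low. The log2 difference within batch 1, 2 and 3 was −1.0, −0.91 and −1.03.

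Vegfb, a ligand of FLT1 that is abundant in heart and muscle and has little angiogenic activity of its own, fell by a small amount. Its locus is on chromosome 19, positions 6982473 to 6987651 (minus strand, Entrez 22340, 7 exon blocks). It stood at 39.6, 39.8 and 38.2 FPKM in scrambled libraries and 32.2, 33.8 and 35.3 FPKM in knockdown libraries 1, 2 and 3. All scrambled values lay above all knockdown values, but the nearest were close. Of tested genes, 37.3% had groups that did not overlap with knockdown lower. The mean fell by 13.9% (limma log2 fold change −0.21 ± 0.04, adjusted p = 0.0023), and the within-batch differences were −0.29, −0.23 and −0.11.

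The ratio of Vegfa to Vegfb within a library does not depend on scaling between libraries. It was 1.33, 1.30 and 1.36 in scrambled libraries and 0.809, 0.810 and 0.713 in knockdown libraries. In FPKM, Vegfa was thus the higher of the pair in every scrambled library and Vegfb in every knockdown library. Which of the pair is higher depends on the gene lengths behind the FPKM values, while the relative fall of the ratio does not. A two-sided exact permutation test of the difference gave p = 0.1, the smallest that 3 against 3 libraries allow.

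Vegfc, which drives the growth of lymphatic vessels, did not pass the test. The locus is on chromosome 8, positions 54077606 to 54187096 (plus strand, Entrez 22341, 7 exon blocks). Its FPKM values were 2.79, 2.61 and 2.55 in scrambled and 3.69, 3.16 and 2.73 in knockdown libraries, so that knockdown library 3 lay within the scrambled range. The limma log2 fold change was 0.22 ± 0.10 (adjusted p = 0.0828), and the within-batch differences were 0.35, 0.23 and 0.08. With batch as a block in the fit the adjusted p was 0.0438, and 0.0136 without knockdown library 3. It was 0.0365 under median centring, 0.0125 under quantile normalization and 0.0193 with the trend in level and length removed.

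Vegfd, the other lymphatic ligand, was level between the groups within the error. The gene is on chromosome X, positions 164373378 to 164402650 (plus strand, Entrez 14205, 7 exon blocks). Its FPKM values were 7.08, 6.38 and 6.51 in scrambled and 6.39, 6.43 and 6.78 in knockdown libraries, and the groups overlapped. The limma log2 fold change was −0.02 ± 0.05 (95% interval −0.15 to 0.10, adjusted p = 0.733), so a change of the size seen in Vegfa lies outside the interval.

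Pgf, which encodes placental growth factor, was near the limit of what was tested. Pgf maps to chromosome 12, positions 85166635 to 85177790 (minus strand, Entrez 18654, 7 exon blocks). Scrambled libraries stood at 0.695, 1.28 and 1.06 FPKM and knockdown libraries at 0.747, 0.678 and 0.781 FPKM, from 48 to 104 fragments each. Scrambled library 1 lay within the knockdown range while the other two scrambled libraries lay above it. Without the filter the limma log2 fold change was −0.27 ± 0.15 (adjusted p = 0.266). Counting error alone was up to 14.4% of a value.

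**Figure D2:**
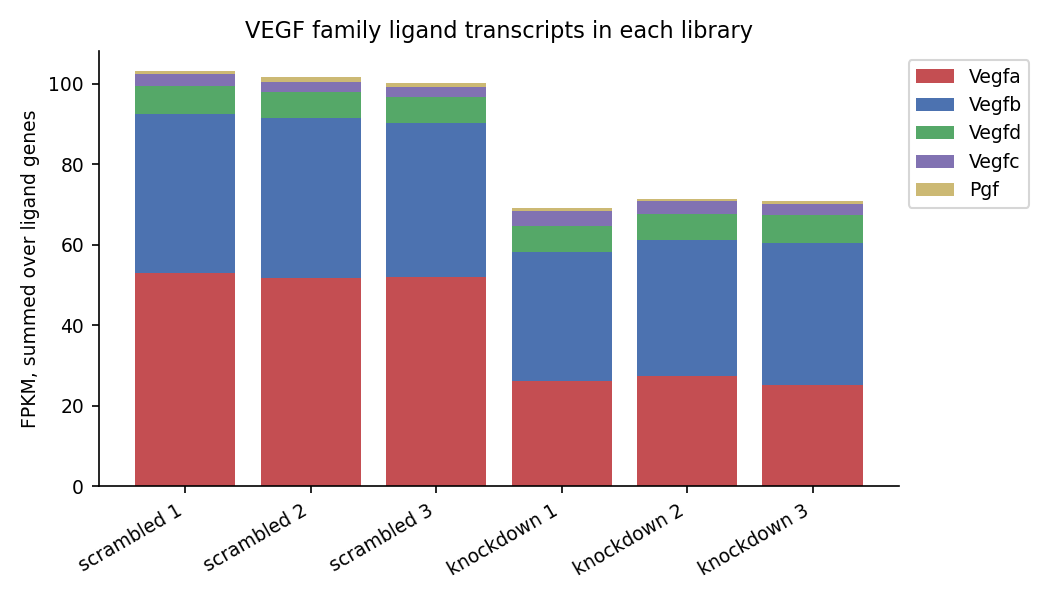
Stacked FPKM of the 5 VEGF family ligand genes (y axis) in each of the 6 libraries (x axis). The stacks reach 100 to 103 FPKM in scrambled and 69.2 to 71.4 FPKM in knockdown libraries, and the Vegfa segment is the one that shrinks most.

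The summed FPKM of the 5 VEGF family ligands was 102 ± 1.35 in scrambled and 70.5 ± 1.17 in knockdown libraries (SD, n = 3 each). Vegfa made up 51.3 ± 0.506% of the sum in scrambled and 37.2 ± 1.44% in knockdown libraries. The share of Vegfb was 38.5 ± 0.505% and 47.9 ± 1.72%, that of Vegfd 6.54 ± 0.304% and 9.28 ± 0.291%, and that of Vegfc 2.61 ± 0.0918% and 4.53 ± 0.748%. Pgf gave 0.996 ± 0.295% and 1.04 ± 0.0832%. The ratio of Vegfa to Vegfc ran from 18.9 to 20.4 in scrambled and from 7.07 to 9.24 in knockdown libraries. These are shares of transcripts per length, and protein was not measured here.

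The neuropilins are transmembrane co-receptors without a kinase domain, and of the pair Nrp2 rose while Nrp1 did not pass. Nrp2, the neuropilin with affinity for VEGF-C, lies on chromosome 1, positions 62703285 to 62818695 (plus strand, Entrez 18187, 18 exon blocks). It stood at 10.4, 11.5 and 11.1 FPKM in scrambled and 12.8, 13.4 and 14.6 FPKM in knockdown libraries, with no overlap, as for 23.8% of tested genes with knockdown higher. The mean rose by 23.6% (limma log2 fold change 0.29 ± 0.06, adjusted p = 0.00271), and the within-batch differences were 0.29, 0.22 and 0.38.

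Nrp1, which binds VEGF-A and semaphorin 3A, lies on chromosome 8, positions 128358604 to 128503363 (plus strand, Entrez 18186, 18 exon blocks). Its values were 16.8, 17.6 and 16.6 FPKM in scrambled and 15.4, 16.2 and 17.7 FPKM in knockdown libraries. Knockdown library 3 was the highest of the 6 libraries and knockdown library 1 the lowest, and the limma log2 fold change was −0.05 ± 0.05 (95% interval −0.17 to 0.07, adjusted p = 0.471). The ratio of Nrp2 to Nrp1 was 0.619, 0.649 and 0.671 in scrambled and 0.831, 0.826 and 0.822 in knockdown libraries. The ratios did not overlap between groups, and the two-sided exact permutation test gave p = 0.1, again the smallest possible.

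Flt1 encodes VEGFR1, a high-affinity receptor and, in its soluble form, a trap for VEGF-A, VEGF-B and PlGF, and gene-level values do not part the forms. Flt1 maps to chromosome 5, positions 147561604 to 147726011 (minus strand, Entrez 14254, 33 exon blocks). Its transcripts stood at 1.03, 0.992 and 1.05 FPKM in scrambled and 0.917, 0.919 and 0.894 FPKM in knockdown libraries. The groups did not overlap, as for 26.1% of all 19877 genes with knockdown lower. Scrambled library 2 lay just short of 1 FPKM, which kept Flt1 below the filter. Without the filter the limma log2 fold change was −0.11 ± 0.06 (adjusted p = 0.257).

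Angpt1, the TIE2 agonist that steadies vessels, was the least abundant member. The gene maps to chromosome 15, positions 42424723 to 42676977 (minus strand, Entrez 11600, 10 exon blocks). The antisense gene Gm17473 overlaps 737 bases of its exons, and no source used here gives the strand setting of the counting. Angpt1 stood at 0.621, 0.502 and 0.447 FPKM in scrambled and 0.383, 0.367 and 0.261 FPKM in knockdown libraries, from 48 to 115 fragments. Every knockdown value was below every scrambled value, and the ratio of the means, knockdown to scrambled, was 0.644, but the gene did not pass without the filter (limma log2 fold change −0.29 ± 0.09, adjusted p = 0.0659). With a filter of 0.25 FPKM in at least 3 libraries, chosen after the values were seen, the limma adjusted p was 0.0544, where 30.4% of the 11847 genes tested were called lower.

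The 3 members below the filter share their direction with most genes of their level. Of 1283 genes with a mean FPKM from 0.4 to 1.2, 77% had a lower mean in knockdown, and the median ratio of knockdown to scrambled was 0.793. That ratio was 0.98 for the 6224 genes of 5 to 60 FPKM. For Flt1, Pgf and Angpt1 the ratio of means was 0.89, 0.727 and 0.644. Without the filter 25.4% of all 19877 genes were called, 16.4% lower in knockdown, and 3 of the 10 members were called, Vegfa, Vegfb and Nrp2. The part of this shift of low genes in their values was not tested.

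Angptl4, induced by PPARs and by hypoxia in many cells, was higher in knockdown libraries, with an adjusted p close to the threshold. It lies on chromosome 17, positions 33773750 to 33781830 (minus strand, Entrez 57875, 7 exon blocks). It stood at 6.87, 7.15 and 7.84 FPKM in scrambled and 8.23, 8.21 and 11.4 FPKM in knockdown libraries. Knockdown library 3 stood apart, while knockdown libraries 1 and 2 lay just above the highest scrambled library. The limma log2 fold change was 0.31 ± 0.11 (95% interval 0.06 to 0.57, adjusted p = 0.0455), and the within-batch differences were 0.25, 0.19 and 0.51. The call held under 10 of 18 alternatives and was lost under 8, with an adjusted p from 0.00933 to 0.148 over all 18. Without knockdown library 3 the log2 fold change was 0.17 (adjusted p = 0.0535), and the adjusted p was 0.127, 0.107 and 0.0533 without scrambled library 1, 2 or 3.

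**Figure D3:**
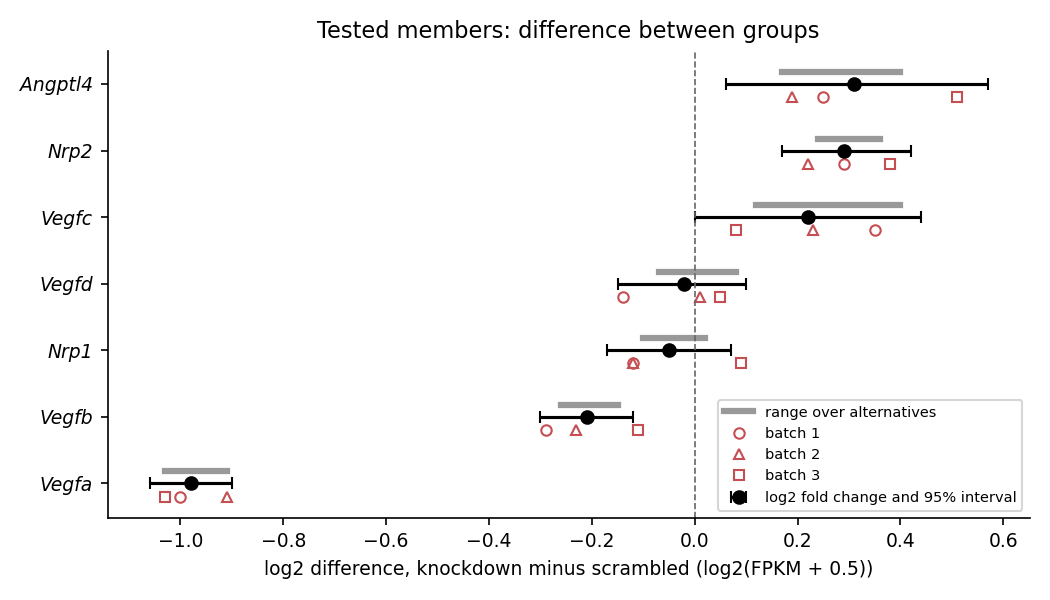
Log2 difference between groups (x axis, log2(FPKM + 0.5), knockdown minus scrambled) for the 7 tested members, with its 95% interval (black), the within-batch differences (open red symbols) and the range over the alternative settings (grey bars). Vegfa at −0.98 stands apart from the other 6, which lie between −0.21 and 0.31.

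**Figure D4:**
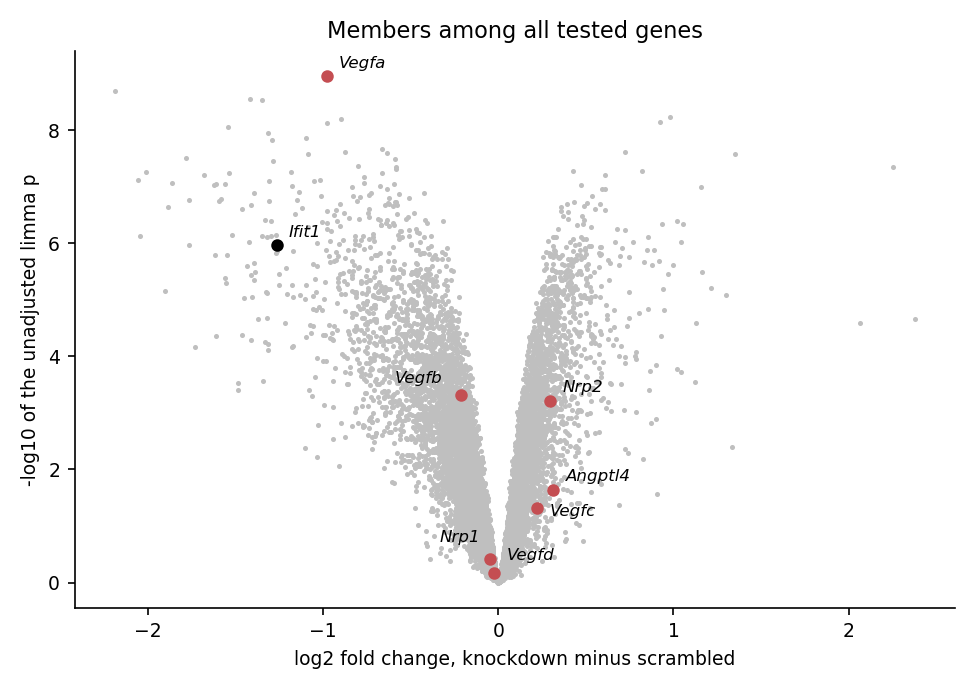
Log2 fold change (x axis) and −log10 of the unadjusted limma p (y axis) of the 10311 tested genes (grey), with the 7 tested members in red and Ifit1 in black. Vegfa has the smallest p of all and a log2 fold change of −0.98, and the other members lie within the body of the cloud.

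The receptors that would read these ligands on endothelium were low or nearly unexpressed. Kdr, the main signalling receptor of VEGF-A, averaged 0.0332 ± 0.0235 FPKM in scrambled and 0.0486 ± 0.0209 FPKM in knockdown libraries. Tek, the TIE2 gene, averaged 0.00344 and 0.0121 FPKM, its relative Tie1 0 and 0.00233 FPKM, and Flt4 0.435 ± 0.0803 and 0.252 ± 0.0469 FPKM. Of 12 endothelial markers in the table, 9 had a mean under 0.1 FPKM, among them Pecam1, Cdh5 and Vwf. Their summed level of 5.92 to 6.72 FPKM in scrambled and 4.04 to 4.33 FPKM in knockdown libraries came mainly from Egfl7 (5.20 ± 0.305 and 3.66 ± 0.253 FPKM).

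Of 13 stromal markers, 12 were abundant enough to test. The exception was Nt5e (CD73), a usual stromal marker, at 0.234 ± 0.103 and 0.206 ± 0.0209 FPKM, and Eng (CD105) was low at 2.06 ± 0.106 and 1.21 ± 0.0427 FPKM. Col1a1 stood at 1220 ± 98.4 FPKM in scrambled and 676 ± 77.6 FPKM in knockdown libraries and Thy1 at 52.1 ± 0.995 and 38.9 ± 1.98 FPKM. Of these 12, 7 were called lower and 3 higher (median −0.49). Over all tested genes, 31.1% were called lower and 19.8% higher. The 3 called higher were Alcam (9.71 ± 0.323 to 14.2 ± 0.175 FPKM), Cd44 (82.6 ± 6.72 to 117 ± 5.49 FPKM) and Itgb1 (log2 fold change 0.09). Adiponectin (Adipoq), which defines mature adipocytes, was at or near 0, and the 7 adipocyte markers summed to 15.7 to 17.0 FPKM in scrambled and 13.9 to 14.6 FPKM in knockdown libraries. Most of this came from Pnpla2 (9.14 ± 0.274 and 8.5 ± 0.739 FPKM) and Pparg (3.96 ± 0.359 and 3.44 ± 0.421 FPKM), which did not pass. The 8 pericyte and smooth muscle markers summed to 409 to 530 and 475 to 574 FPKM, mostly Acta2. Of 4 tested, Notch3 and Pdgfrb were called lower, and Rgs5 was near 0. Notch3 passed the filter only through its scrambled libraries (2.68 to 3.25 FPKM, and 0.529 to 0.797 FPKM in knockdown). Of 3 lymphatic markers only Pdpn was tested (log2 fold change −0.06 ± 0.05, adjusted p = 0.303 by limma), and Prox1 was at or near 0. The 7 macrophage markers summed to 4.53 to 5.61 and 5.85 to 5.97 FPKM, mostly Cd14 and Cd68, with Ptprc and Itgam at or near 0. Cd14 was called higher (2.96 ± 0.384 to 3.9 ± 0.197 FPKM, limma adjusted p = 0.00927). Cd68 did not pass (1.92 ± 0.212 and 1.87 ± 0.212 FPKM). The 7 epithelial and mesothelial markers summed to 19.4 to 27.5 and 13.7 to 18.9 FPKM, mostly Msln, with Epcam, Cdh1, Upk3b and Wt1 under 0.2 FPKM in each group's mean. Msln was called lower (log2 fold change −0.52, limma adjusted p = 0.0148). Krt8 and Krt18, below the filter, averaged 0.683 and 0.992 FPKM in scrambled and 0.32 and 0.433 FPKM in knockdown libraries. The part of these shifts in the members' values was not tested.

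The other partners of neuropilins went both ways. Of 6 tested receptor genes beside the members, 3 were called higher and 2 lower, with a median log2 fold change of 0.03. Over all tested genes the shares were 19.8% higher and 31.1% lower. The semaphorin receptor Plxnd1 fell from 5.19 ± 0.0997 to 3.33 ± 0.169 FPKM (limma log2 fold change −0.57 ± 0.06, adjusted p = 0.000106), and Plxna3 fell by 0.26. Plxna1, a plexin that pairs with neuropilins, rose from 42.7 ± 1.07 to 52.4 ± 2.08 FPKM (0.29 ± 0.04, adjusted p = 0.000374), and the integrin gene Itga5 rose by 0.20. The call of the integrin gene Itgb1 (0.09, adjusted p = 0.0468) is the fifth, and it held under 7 of 18 alternatives. With quantile normalization, the trend in level and length removed, or without scrambled library 3 or knockdown library 2, 1 was called higher and 2 lower, since Itga5 and Itgb1 lost their calls.

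Of 4 tested class 3 semaphorins, secreted ligands of neuropilins and plexins, 1 rose and 2 fell. Calls over all tested genes were 19.8% higher and 31.1% lower. Sema3c rose from 3.67 ± 0.16 to 7.71 ± 1.18 FPKM (limma log2 fold change 0.97 ± 0.09, adjusted p = 9.9e-05). Sema3f, a ligand of NRP2, fell by 0.67 (adjusted p = 0.00764) and Sema3e, which binds PLXND1, fell by 0.39 (adjusted p = 0.00439). Sema3a, the ligand of NRP1, stood at 10.3 ± 0.48 and 10.1 ± 0.183 FPKM (adjusted p = 0.57). The call of Sema3e was lost under quantile normalization and with the trend in level and length removed. Sema3e reached the filter through its scrambled libraries (1.39 to 1.53 FPKM, and 0.963 to 1.06 FPKM in knockdown). Without the filter 1 of 7 semaphorins rose and 4 fell, where 16.4% of all 19877 genes were called lower.

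Among genes that process VEGF-C and VEGF-D, Ccbe1 rose and Adamts14 fell, and 3 of 5 tested genes did not pass. Over all tested genes 51.0% were called. Ccbe1, a secreted cofactor for the cleavage of VEGF-C by ADAMTS3, rose from 1.35 ± 0.133 to 3.83 ± 0.781 FPKM (limma log2 fold change 1.22 ± 0.13, adjusted p = 0.000134). The protease gene Adamts3 itself was low, at 0.167 ± 0.0465 and 0.103 ± 0.0514 FPKM. The call of Adamts14 (−0.16, adjusted p = 0.0267) held under 10 of 18 alternatives, and was lost without the filter, with median or quantile scaling, with the trend in level and length removed and without scrambled library 1 or 2 or knockdown library 1 or 3. Furin, which cleaves both ligands, stood at 30.1 ± 1.01 and 30.3 ± 1.53 FPKM (adjusted p = 0.925).

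Of the other angiopoietin-like ligands only Angptl2 was tested, and it rose from 47.0 ± 1.84 to 55.4 ± 0.717 FPKM (limma log2 fold change 0.24 ± 0.03, adjusted p = 0.000737). Angptl6, below the filter, stood at 1.59, 0.987 and 1.86 FPKM in scrambled and 0.145, 0.442 and 0.223 FPKM in knockdown libraries. Without the filter, 1 of 6 other angiopoietin and angiopoietin-like genes was called higher and 1 lower. In that setting 16.4% of all 19877 genes were called lower. Angpt2, the context-dependent antagonist of TIE2, averaged 0.285 ± 0.14 and 0.365 ± 0.0838 FPKM, near the level of Angpt1.

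Of 9 tested genes listed as matrix and decoy inhibitors of vessel growth, 2 rose and 4 fell (median 0.01). Not all 9 are matrix inhibitors: Vash2 (0.01) and Vasn (0.03), neither called, count in this median. Over all tested genes, 19.8% were called higher and 31.1% lower (median −0.05). Thbs1 (thrombospondin 1) rose from 173 ± 10.3 to 230 ± 19.9 FPKM and Timp3, which blocks VEGF-A binding to KDR, from 42.7 ± 1.23 to 55.7 ± 1.94 FPKM, while Thbs2 fell from 48.1 ± 1.59 to 32.0 ± 1.48 FPKM and Serpinf1 (PEDF) from 144 ± 13.2 to 89.3 ± 8.32 FPKM. The limma adjusted p was 0.00086, 9.42e-05, 3.13e-05 and 0.000166 in that order. Of 19 tested transducers of VEGF receptor signals, 5 rose and 6 fell (median −0.07), near the shares over all tested genes. Among them, Akt1 (0.29) and Mapkapk2 (0.18) were higher and Plcg1 (−0.40) and Shc1 (−0.32) lower. Hspb1 and Src were also called higher, but these calls were lost under 10 and 6 of 18 alternatives. After rescaling to TPM 3 transducers rose and 8 fell, where 1540 of all tested genes rose and 4035 fell. Without the filter 3 of 20 rose and 7 fell, where 16.4% of all 19877 genes were called lower.

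Most genes of the hypoxia-inducible factor system, which is known to act on Vegfa, were lower in knockdown. Of 8 tested HIF subunit and oxygen sensor genes, 6 fell and 1 rose (median −0.35). Over all tested genes 31.1% fell and 19.8% rose. The 6 were both subunit genes and genes of oxygen sensing, and HIF activity was not measured. Hif1a fell from 52.0 ± 2.22 to 39.6 ± 2.30 FPKM (limma log2 fold change −0.39 ± 0.05, adjusted p = 0.000316) and its partner Arnt from 24.5 ± 0.648 to 19.2 ± 0.616 FPKM (−0.35 ± 0.04). The oxygen sensor genes Egln3 and Egln1 fell by 0.81 and 0.28 and Vhl by 0.37, while Egln2 rose by 0.15. Epas1, the HIF-2 alpha gene, was low (0.158 and 0.062 FPKM). Of 20 tested hypoxia sentinel genes, 17 fell and 0 rose (median −0.48). Bnip3, Pdk1, Ndrg1 and Ankrd37 lay beyond Vegfa at −1.35, −1.42, −1.14 and −1.04, and P4ha2 stood at −0.59. The glucose transporter gene Slc2a1 stood at −0.38 and Pgk1 at −0.18. ATF4 is also known to act on Vegfa. Of 17 tested genes of the ATF4 list, which holds Atf4 itself (−0.30), all 17 fell (median −0.71). They ran from Trib3 (−2.19) to Phgdh (−0.19), and Vldlr passed the filter only through its scrambled libraries. Stc2 stands in both of these lists. The part of either system in the level of Vegfa was not tested.

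Genes that PPARs are known to induce went both ways. Of 11 tested, 6 fell, 1 rose and 4 did not pass (median −0.16), where 31.1% of all tested genes fell and 19.8% rose. The one that rose was Pdk4, a pyruvate dehydrogenase kinase, which went from 4.34 ± 0.523 to 5.50 ± 0.661 FPKM (limma log2 fold change 0.31 ± 0.10, adjusted p = 0.0272). Acot2 (−1.78) and Fgf21 (−2.04) fell, and the lipid droplet gene Plin2 stood at 0.06 (adjusted p = 0.288). Fgf21 passed the filter only through its scrambled libraries (1.55 to 2.61 FPKM, and 0.0521 to 0.13 FPKM in knockdown). The call of Fgf21 was lost under 0 of 18 alternatives and untested under 1. With median centring 2 rose and 3 fell, and with quantile normalization 1 rose and 4 fell. The call of Pdk4 was lost without the filter and without scrambled library 1 or 2 or knockdown library 1 or 3, and 4 genes fell without the filter, without scrambled library 2 or without knockdown library 1.

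**Figure D5:**
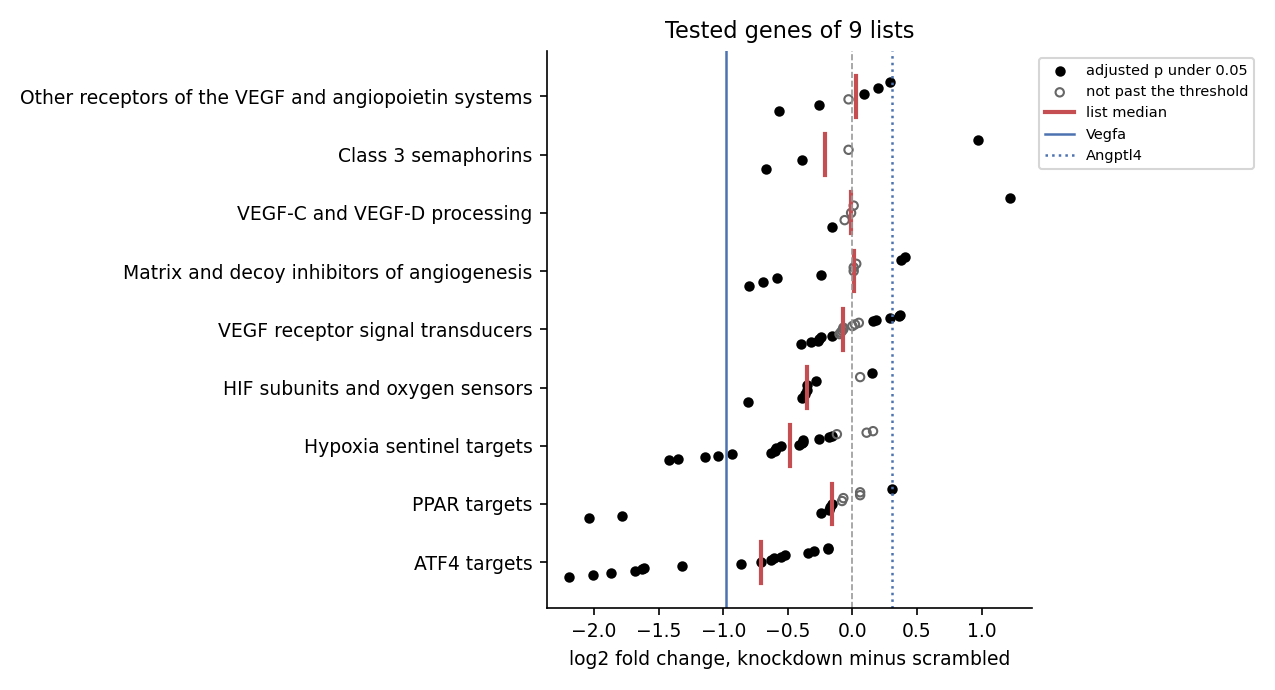
Log2 fold change (x axis) of the tested genes of 9 gene lists (rows), filled where the limma adjusted p is under 0.05 and open where not, with list medians in red and the values of Vegfa (−0.98, solid blue line) and Angptl4 (0.31, dotted blue line). The hypoxia sentinel and ATF4 lists lie mostly left of 0, with medians of −0.48 and −0.71, and the receptor, semaphorin and inhibitor lists lie on both sides.

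The genes whose pattern over the 6 libraries lay closest to each called member were found by the root mean square difference of log2 values centred on each gene's own mean. This likeness follows mainly from the difference between the groups. Closest to Vegfa was Bhlhe40, a basic helix-loop-helix repressor, with a difference of 0.025 and levels of 31.0, 30.6 and 30.6 FPKM in scrambled and 14.8, 16.5 and 14.9 FPKM in knockdown libraries. Dennd3 (0.046) and Apobr (0.055) followed. Dennd3 stood at 1.97, 1.89 and 2.08 FPKM in scrambled and 0.823, 0.864 and 0.758 FPKM in knockdown libraries. It passed the filter only through its scrambled libraries. Apobr stood at 5.72, 5.73 and 5.54 FPKM and at 2.34, 2.79 and 2.56 FPKM. The constant added before taking logs understates changes of low genes, and its part in these likenesses was not tested. Closest to Vegfb were Adgra2, Lig1 and Enah (0.014, 0.016 and 0.016). Adgra2 is an adhesion receptor known from brain vessel growth and stood at 55.2 to 57.3 FPKM in scrambled and 46.5 to 49.7 FPKM in knockdown libraries. Closest to Nrp2 were Hoxc13, Ccdc9b and Nup37 (0.017, 0.019 and 0.023). Closest to Angptl4 were Ahr, Ccl7 and Gsta4 (0.052, 0.067 and 0.072), each highest in knockdown library 3, as with Ccl7, a monocyte chemokine, at 71.3 FPKM there and 40.2 to 45.7 FPKM in the other 5.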

How the data were processed

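Messenger RNA was sequenced from 6 libraries, and the authors deposited 1 table of FPKM values per gene and library. The submitters' processing notes name GRCm38, mm10 and GRCm39 without a role, and no source used here gives the aligner, counting tool or strand setting. Fragments per library were recovered from the steps of the FPKM values (within 0.002 of a whole number for 19877 of 19877 genes), taking the smallest whole numbers, so those of some genes may be understated. Genes were filtered, logged and tested as stated in the report, with limma 3.58.1 in R 4.3.3 (moderated variance with a trend, two-sided, no batch term) over all 6 libraries. The procedure was checked on simulated data in which few genes changed, as many up as down. That check does not cover data where 51.0% of tested genes are called. The labels put libraries of 1 number in the same batch, so the number pairs them, although their deviations correlated by only 0.09, 0.01 and 0.19 in batches 1, 2 and 3. Members and 17 other lists were chosen with earlier results of these data known. Named genes are the members, Ifit1, up to 4 list genes of smallest p, others singled out after their values were seen, and the 3 nearest genes by pattern, without predicted genes. Positions are from GENCODE M21 (GRCm38). Alternatives changed the pseudocount, filter, scaling, variance model, tool, block and libraries.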

Additional observations from a re-analysis of the deposited data

How the results depend on the processing

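Vegfa, Vegfb and Nrp2 kept their direction and call under all 18 alternatives, with log2 fold changes from −1.03 to −0.91, −0.26 to −0.15 and 0.24 to 0.36. The count of members called lower was 2 throughout. The count called higher was 2 and became 1 without the filter, after rescaling to TPM, without the variance trend and with the filter of 0.25 FPKM (chosen after seeing the data), each by the loss of Angptl4. Leaving out each library gave 1 to 2, and without knockdown library 3 the 2 were Nrp2 and Vegfc. With batch as a replicate block, with quantile or median scaling, or with the trend in level and length removed the count was 3, since Vegfc joined Nrp2 and Angptl4. The block ended no call of a member; the log2 fold changes stayed as they were, with Vegfa at −0.98 and Ifit1 at −1.27. Vegfd turned to 0.075 under quantile normalization, 0.042 under median centring and 0.056 with the trend in level and length removed, and it ran from −0.052 to 0.018 when single libraries were left out, above 0 without scrambled library 1. Nrp1 turned to 0.017 under median centring. None of these passed the threshold, and beyond the settings' own construction the cause was not tested. Over the 17 other lists, 268 of 304 counts of called genes stayed within 1.5 times the reported ones. Depth limits Pgf and Angpt1, with as few as 48 fragments.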
